A study of Mus musculus with 8 samples.

Results

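Neurotrophins are secreted growth factors made as precursors, which proteases cut to the mature form. The mature forms act through Trk receptor tyrosine kinases and can also bind the death-domain receptor p75NTR. The precursors act through p75NTR together with sortilin, a sorting receptor. In the hippocampus the ligand BDNF and its receptor TrkB are known for their part in synaptic plasticity, and BDNF transcription is driven by neuronal activity. The genes described here are the ligands Bdnf and Ntf3, the Trk receptors Ntrk2 and Ntrk3, and the genes for p75NTR and sortilin, Ngfr and Sort1. They were chosen by gene symbol and are 6 of the 25834 genes in the count table.

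RNA sequencing compared 4 control hippocampi with 4 from SAP97-cKO animals, all male, with 1 library for each mouse. The SAP97-cKO genotype has a Nestin-cre allele and 2 floxed alleles of Dlg1, the gene for the synaptic scaffold SAP97 (Nestin-cre+/-; SAP97fl/fl). The Nestin promoter drives Cre in neural progenitors, so that cells of other lineages in the tissue, such as microglia, keep the gene. Controls were littermates that were Nes-cre+/-, SAP97fl/fl or wild-type, and which of these each control library is, and how old the sequenced mice were, the sources used here do not give. The comparison asks which hippocampal transcripts differ when SAP97 is lost, and here it is followed through neurotrophin signalling.

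Each library held 37388177 to 37426572 counts, since the authors had resampled reads to a common depth, and 15 mitochondrial genes held 3.73 to 4.93% of them. Values below are normalized read counts (deposited counts divided by relative library size) unless a level per length is named. Dlg1 had 4128, 4550, 3983 and 4691 normalized read counts in controls 1 to 4 and 2353, 3065, 2144 and 2009 in SAP97-cKO 1 to 4, so the groups did not overlap (log2 fold change -0.86 ± 0.12 SE, adjusted p = 0.143 by edgeR's quasi-likelihood test, Benjamini-Hochberg). The hippocampal markers Prox1 (dentate granule cells), Wfs1 (CA1), Rgs14 (CA2) and Grik4 (CA3) were present, with means of 125, 145, 113 and 49.6 CPM (counts scaled to a common library total) in the control libraries and 127, 184, 128 and 58.8 CPM in the SAP97-cKO libraries. These single markers do not give the direction of their lists. Of 5 CA2 markers, 4 had a log2 fold change below zero (list median -0.39), and only Rgs14 was above. Of 8 dentate granule cell markers, 5 were below zero (median -0.021), and of 6 CA3 markers, 2 were (median 0.077). None of these was called. Libraries also differed in other tissue. Summed CPM of 10 choroid plexus markers was 1205, 6838, 3815 and 173 in controls 1 to 4 and 572, 2352, 1361 and 99.0 in SAP97-cKO 1 to 4. All 10 had a log2 fold change below zero (median -1.48), and 0 were called. Of 16 meningeal fibroblast markers, 6 were called lower in SAP97-cKO hippocampi, and the summed CPM of the 16 was 326 to 632 in controls and 196 to 341 in SAP97-cKO. The list holds genes that the paper reports as differing in these same libraries, such as Col1a2, Col3a1 and Omd. Its calls are therefore no independent evidence. Mean log2 CPM of the list, used as a covariate below, was 3.15 to 3.94 in controls and 2.02 to 2.97 in SAP97-cKO. These ranges were apart, so that covariate and genotype cannot be told apart. Of 10 oligodendrocyte markers, all 10 had a log2 fold change below zero and 0 were called, with 7 at an unadjusted p under 0.05. All 6 CA1 pyramidal cell markers were above zero (median log2 fold change 0.27, 1 at an unadjusted p under 0.05) and all 10 endothelial and mural markers below zero (median -0.20, 2 at an unadjusted p under 0.05), with 0 called in either list. Of 10 neuron markers, 7 were above zero and 3 below (median 0.041). At an unadjusted p under 0.05 there were 3 neuron markers, all higher, and 0 were called.

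All 6 genes were expressed and passed the filter on low counts. None of them was called at the study's threshold, an FDR under 0.25 (edgeR's quasi-likelihood test over 16251 genes), and DESeq2 called 0 of them as well (5.97% of all genes it tested were called). Among all tested genes, 0.295% were called, or 48 genes. At an unadjusted p under 0.05, 1 of the 6 passed, Ngfr, which was lower, against 11.7% of all tested genes. In each of the 6 genes the range of the SAP97-cKO mice overlapped that of the controls, while the ranges were apart in 6.25% of all tested genes. The other 5 genes had log2 fold changes above zero, between 0.080 and 0.29, and the median of the 6 was 0.15, against -0.012 for all tested genes. Without control 4 the median of the 6 was 0.086. Markers of CA1, choroid plexus, meningeal fibroblasts, oligodendrocytes, and endothelial and mural cells each lay to 1 side of zero. With the choroid plexus or oligodendrocyte level as a covariate the median of the 6 was 0.097 or 0.11. With the meningeal fibroblast level, which cannot be separated from genotype, it was 0.025. The part of these tissues in the values of the 6 genes was not tested beyond such fits. These values do not show that the levels are alike in both genotypes, and the 95% interval of each difference is given with the gene. In whole tissue, fewer cells of a type and less RNA per cell cannot be told apart.

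**Figure D1:**
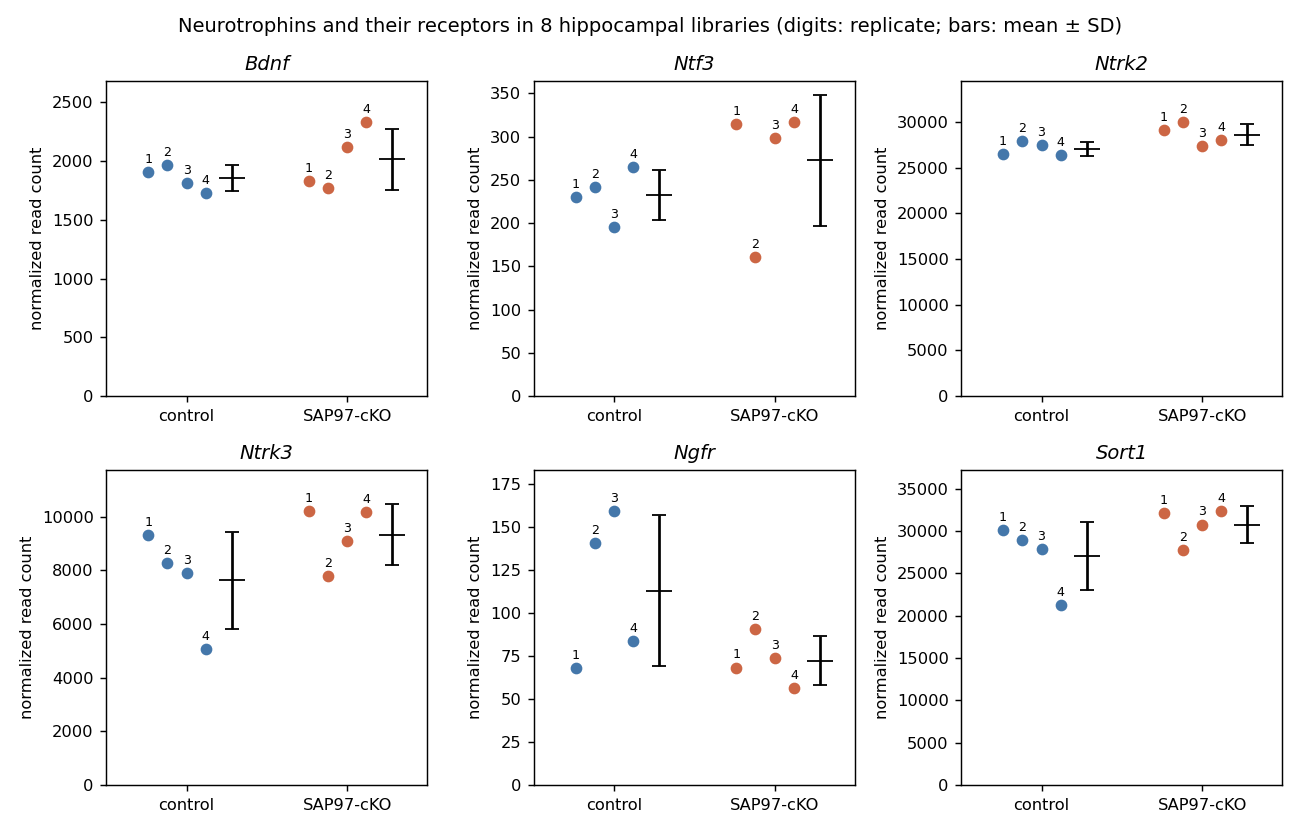
Normalized read counts (y axis, from 0) of the 6 genes in each of 4 control (blue) and 4 SAP97-cKO (orange) hippocampi, with the replicate number above each point and bars for the mean and SD. The groups overlap in every panel; control 4 is the lowest library for Ntrk3 and Sort1, SAP97-cKO 2 for Ntf3, and controls 2 and 3 are the highest for Ngfr.

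The levels of the genes were compared after division by gene length, as CPM per kb of merged exons. Sort1 was the most abundant, at 95.6 ± 14.1 (SD, n = 4) CPM per kb in control hippocampi, followed by Ntrk2 at 37.5 ± 1.04. Bdnf (7.98 ± 0.466) and Ntrk3 (6.78 ± 1.6) came next on this scale. Ntf3 was at 3.63 ± 0.453 and Ngfr at 0.876 ± 0.341 CPM per kb. Over the 8 libraries Bdnf ranged from 7.41 to 10.02, Ntrk3 from 4.50 to 9.06 and Ntf3 from 2.5 to 4.94 CPM per kb. Ntrk3 therefore overlapped both of its neighbours in this order, while the other neighbours did not overlap. Dividing by the longest protein-coding transcript gave the same order of control means, but Sort1 (83.1 to 127) and Ntrk2 (80.7 to 91.7) then overlapped. In the SAP97-cKO mice the order of the merged-exon levels was the same, with 109 ± 7.57 for Sort1, 39.7 ± 1.6 for Ntrk2, 8.66 ± 1.13 for Bdnf, 8.27 ± 1.01 for Ntrk3, 4.25 ± 1.17 for Ntf3 and 0.560 ± 0.111 for Ngfr. On either length, the transcript of TrkB exceeded that of its ligand BDNF in every library, and p75NTR transcript was the scarcest of the 6 in both genotypes.

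Bdnf encodes brain-derived neurotrophic factor, the ligand of TrkB. The gene (ENSMUSG00000048482) lies on the plus strand of GRCm38 at chr2:109674700-109727007, with 11 annotated transcripts, all protein-coding, that start from several promoters. RefSeq lists 7 promoter windows for it in GRCm38.p6, and 1 of these holds TCACGTCA, a cAMP response element-like motif through which CREB-family factors are known to act on activity-dependent genes. That window is shown because the deposited count pools the transcripts of every Bdnf promoter, the activity-driven ones included. The 250 bases before its start site, at chr2:109692186-109692435 on the plus strand, read 5′ to 3′ with the motif in capitals:
Bdnf promoter: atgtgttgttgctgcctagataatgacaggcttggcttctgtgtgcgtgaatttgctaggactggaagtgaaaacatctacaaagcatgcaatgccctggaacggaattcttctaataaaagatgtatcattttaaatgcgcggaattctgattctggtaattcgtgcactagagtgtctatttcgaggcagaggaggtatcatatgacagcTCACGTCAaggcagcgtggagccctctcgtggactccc
The motif, searched on both strands (TGACGTGA on the other), was in 0.35% of 32851 promoter windows of the same kind. The match describes these letters only, and no start site of Bdnf was measured here. Promoter windows of Ntf3, Ntrk2 and Ngfr held no copy of the motif.

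Bdnf had 1910, 1970, 1814 and 1724 normalized read counts in controls 1 to 4. It had 1832, 1767, 2122 and 2330 in SAP97-cKO 1 to 4. SAP97-cKO 3 and 4 were above all controls, and SAP97-cKO 1 and 2 were within the control range. The means were 1855 ± 108 and 2013 ± 262 (SD, n = 4 each), a log2 fold change of 0.12 ± 0.094 (SE, 95% interval -0.090 to 0.33, adjusted p = 0.615 by edgeR). The exact two-sided permutation test over the 70 assignments of mice to groups gave p = 0.314, where the smallest it allows is 0.0286. On the fold scale, the interval runs from 0.940 to 1.25 times the control level. With the meningeal fibroblast level as a covariate the difference on the log2 scale became -0.040 ± 0.20 (SE), with its sign turned. That level was lower in every SAP97-cKO library than in any control, so this fit cannot separate it from genotype.

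Ntf3 encodes neurotrophin-3, the preferred ligand of TrkC. The gene (ENSMUSG00000049107) lies on the minus strand at chr6:126101412-126166910, with 3 transcripts. It had 230, 241, 195 and 265 normalized read counts in controls 1 to 4. It had 315, 160, 298 and 317 in SAP97-cKO 1 to 4. SAP97-cKO 1, 3 and 4 were above all controls and SAP97-cKO 2 was below all of them. The means were 233 ± 29.0 and 272 ± 75.2 (SD, n = 4 each), a log2 fold change of 0.23 ± 0.20 (SE, 95% interval -0.23 to 0.68, adjusted p = 0.655 by edgeR; exact two-sided permutation p = 0.371).

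SAP97-cKO 2 was also the library with the fewest dentate granule cell transcripts. The 8 markers of that cell type summed to 508 CPM there, against 793 to 973 in the other SAP97-cKO libraries and 666 to 871 in the controls. Control 4 had the next lowest sum, 666 CPM, but the highest Ntf3 of the controls, 265 normalized read counts. Calb1, 1 of the 8 markers, was not lowest in SAP97-cKO 2. With the level of these markers as a covariate, a fit chosen after the data were seen, the Ntf3 difference was 0.23 ± 0.15 (SE, adjusted p = 0.506 by edgeR) on the log2 scale. Without SAP97-cKO 2, the log2 fold change of Ntf3 was 0.41 ± 0.13 (SE, adjusted p = 0.361 by edgeR). Leaving out control 4 as well, a choice made after the data were seen, gave 0.48 ± 0.12 (SE, adjusted p = 0.240), which is past the threshold in a fit that called 3.04% of all tested genes (495), against 0.295% with all 8 libraries. With the meningeal fibroblast level as a covariate, which cannot be separated from genotype, the direction turned, to -0.35 ± 0.42 (SE, adjusted p = 0.996 by edgeR). With the choroid plexus level the difference was 0.077 ± 0.20 (SE).

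The ratio of the counts of Bdnf to those of Ntf3 within a library was 8.30, 8.17, 9.29 and 6.51 in controls 1 to 4 and 5.82, 11.0, 7.13 and 7.36 in SAP97-cKO 1 to 4. The SAP97-cKO values lay on both sides of the controls.

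Ntrk2 encodes TrkB, the receptor of BDNF, in full-length and truncated forms without the kinase. The gene (ENSMUSG00000055254) lies on the plus strand at chr13:58806569-59133970, and its 7 protein-coding transcripts are 2284 to 8744 bp long. A gene-level count cannot separate the forms. Ntrk2 had 26495, 27937, 27473 and 26398 normalized read counts in controls 1 to 4, and 29071, 29976, 27347 and 28061 in SAP97-cKO 1 to 4. SAP97-cKO 1, 2 and 4 were above all controls, and SAP97-cKO 3 was within their range. The means were 27076 ± 752 and 28614 ± 1151 (SD, n = 4 each). The log2 fold change was 0.080 ± 0.065 (SE, 95% interval -0.065 to 0.22, adjusted p = 0.623 by edgeR; exact two-sided permutation p = 0.114). The interval spans 0.956 to 1.17 times the control level, the narrowest of the 6 genes. Ntrk2 also varied least among mice of 1 genotype.

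Ntrk3 encodes TrkC, the receptor of neurotrophin-3. The gene (ENSMUSG00000059146) lies on the minus strand at chr7:78175959-78738012, with a longest protein-coding transcript of 19703 bp. Gm9885 overlaps it on the other strand and is counted separately in the table, and whether the counting used strand is not given in the sources used here. Ntrk3 had 9307, 8285, 7907 and 5080 normalized read counts in controls 1 to 4. It had 10226, 7811, 9113 and 10191 in SAP97-cKO 1 to 4. Control 4 was below all other libraries, at 59.8% of the mean of the other 3 controls. The means were 7645 ± 1809 and 9335 ± 1140 (SD, n = 4 each), a log2 fold change of 0.29 ± 0.17 (SE, 95% interval -0.079 to 0.66, adjusted p = 0.499 by edgeR; exact two-sided permutation p = 0.200).

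Sort1 encodes sortilin, which carries neurotrophin precursors through the secretory pathway and serves as co-receptor of p75NTR. The gene (ENSMUSG00000068747) lies on the plus strand at chr3:108284082-108361511, overlaps Gm12523 (other strand) and Gm43099 (same strand), and has a longest protein-coding transcript of 6836 bp. It had 30151, 28962, 27832 and 21246 normalized read counts in controls 1 to 4. It had 32156, 27736, 30776 and 32393 in SAP97-cKO 1 to 4. Control 4 was again the lowest, at 73.3% of the mean of the other controls, and the remaining controls lay inside the SAP97-cKO range. The means were 27048 ± 3982 and 30765 ± 2141 (SD, n = 4 each), a log2 fold change of 0.19 ± 0.11 (SE, 95% interval -0.061 to 0.43, adjusted p = 0.516 by edgeR; exact two-sided permutation p = 0.143).

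Ntrk3 and Sort1 followed each other from library to library. Of 14065 genes with a mean of at least 1 CPM, Sort1 was the closest to Ntrk3 in log2 CPM over the 8 libraries (Pearson r = 0.997, Spearman rho = 0.952). The next was Fry (r = 0.996), a large cytoskeletal regulator, which was in turn the closest to Sort1 (r = 0.999). Without the 2 libraries farthest from the median of Ntrk3, control 4 and SAP97-cKO 1, the r of Ntrk3 with Sort1 was 0.983. Fry had 7339, 6776, 6218 and 3548 normalized read counts in controls 1 to 4 and 8189, 6182, 7427 and 8236 in SAP97-cKO 1 to 4, with the same library at the bottom. These r values describe only 8 libraries, resampled to a common depth, and they were picked as the highest of many.

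Genes were put in classes by transcript length, using only tested genes with a mean normalized read count at or above the median. Among these, genes with long transcripts were low in control 4 as a class. There the median log2 deviation from the mean of the 8 libraries fell in steps from 0.22 for 1456 genes with a longest protein-coding transcript under 2 kb to 0.019 at 2 to 4 kb, -0.12 at 4 to 6 kb, -0.26 at 6 to 8 kb and -0.40 for 672 genes over 8 kb. In the other 7 libraries the medians over 8 kb were 0.0014 to 0.14. The deviations of Ntrk3 and Sort1 in control 4 were -0.71 and -0.43, lower than the median of their length class. Ntrk2, whose longest transcript is also over 8 kb, deviated by -0.076. The deviations of Bdnf, Ngfr and Ntf3 there were -0.16, -0.059 and 0.10, also lower than the median of their length class. Of 12527 genes with a mean of at least 100 normalized read counts, 313 were as low in control 4, relative to the other controls, as Ntrk3. The median length of those 313 was 6379 bp, against 3390 bp for all.

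**Figure D2:**
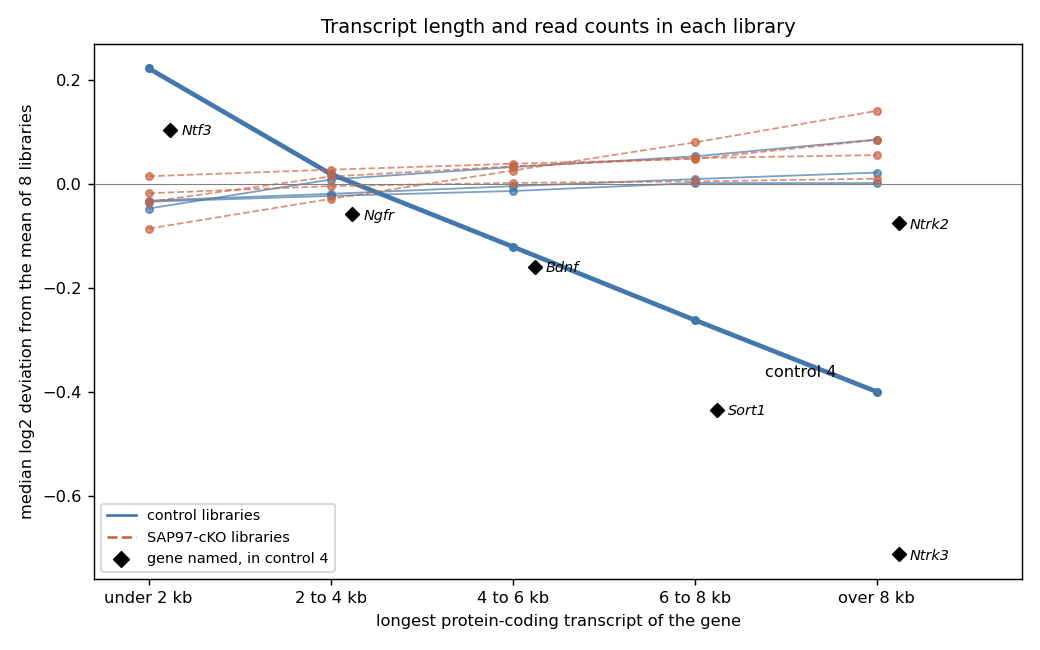
Median log2 deviation of genes from their mean over the 8 libraries (y axis) by the length class of the longest protein-coding transcript (x axis), 1 line per library, with diamonds for the 6 genes in control 4. The lines use only tested genes with a mean normalized read count at or above the median. Control 4 (thick line) falls from 0.22 to -0.40, the other 7 libraries stay between -0.086 and 0.14, and 5 of the 6 genes lie below the control 4 median of their length class, Ntrk3 and Sort1 farthest, while Ntrk2 lies above it.

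Without control 4 the differences of both receptors were smaller. The log2 fold change of Ntrk3 was then 0.14 ± 0.10 (SE, adjusted p = 0.608 by edgeR) and that of Sort1 0.087 ± 0.073 (SE, adjusted p = 0.656). Removing each library's trend on transcript length, a fit chosen after the data were seen, gave 0.084 ± 0.065 (SE) for Ntrk3 and 0.12 ± 0.070 (SE) for Sort1. In the same fit Ntrk2 moved from 0.080 to -0.039 ± 0.089 (SE, adjusted p = 0.881), so the sign of its difference depended on this choice. The within-library count ratio of Sort1 to Ntrk3 was 3.24, 3.50, 3.52 and 4.18 in controls 1 to 4 and 3.14, 3.55, 3.38 and 3.18 in SAP97-cKO 1 to 4, with control 4 above the rest.

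Ngfr encodes p75NTR, the receptor that all neurotrophins and their precursors can bind. In the adult forebrain it is best known from basal forebrain cholinergic neurons, whose axons reach the hippocampus, and it is low in hippocampal tissue itself. The gene (ENSMUSG00000000120) lies on the minus strand at chr11:95568818-95587735, with 1 transcript of 3446 bp. It had 68.0, 141, 159 and 83.5 normalized read counts in controls 1 to 4. It had 68.2, 90.6, 74.0 and 56.1 in SAP97-cKO 1 to 4. Controls 2 and 3 were above all SAP97-cKO libraries, while controls 1 and 4 lay inside the SAP97-cKO range. The means were 113 ± 43.9 and 72.2 ± 14.3 (SD, n = 4 each), so that SAP97-cKO hippocampi held 64.0% of the control level. The log2 fold change was -0.64 ± 0.28 (SE, 95% interval -1.26 to -0.021, unadjusted p = 0.0439, adjusted p = 0.414 by edgeR; exact two-sided permutation p = 0.200). This was the widest interval of the 6 genes, and Ngfr had the fewest counts, with 459 deposited counts over the 4 controls and 285 over the 4 SAP97-cKO libraries.

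The Ngfr difference varied with the control mice kept. Without control 1 the log2 fold change was -0.82 ± 0.25 (SE, adjusted p = 0.206 by edgeR). That passes the threshold in a fit that called 10.2% of all tested genes (1675). Without control 3 the log2 fold change was -0.42 ± 0.27 (SE, adjusted p = 0.652). Controls 2 and 3 were also the libraries with the highest summed choroid plexus markers. Control 4 had a lower sum than control 1 (173 against 1205 CPM) but more Ngfr (83.5 against 68.0 normalized read counts). With the choroid plexus level as a covariate the Ngfr difference on the log2 scale became -0.36 ± 0.22 (SE, adjusted p = 0.508), and with the meningeal fibroblast level -0.36 ± 0.53 (SE, adjusted p = 0.996). The meningeal level did not overlap between genotypes, so the second fit cannot separate it from genotype.

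The genes most like Ngfr over the 8 libraries were Foxj1, the regulator of motile cilia in ependymal cells, and Ttc25, a component of motile cilia (Pearson r = 0.985 and 0.983, Spearman rho = 0.976 for both). Without controls 2 and 3, the 2 libraries farthest from the median of Ngfr, these r values were 0.934 and 0.901. Foxj1 had 400, 870, 934 and 541 normalized read counts in controls 1 to 4 and 470, 610, 436 and 369 in SAP97-cKO 1 to 4. As for Ngfr, controls 2 and 3 stood above the other 6 libraries, and the genotypes were not called apart (log2 fold change -0.54 ± 0.26 SE, adjusted p = 0.435 by edgeR). The part of ventricular tissue in the Ngfr difference was not tested beyond these values.

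**Figure D3:**
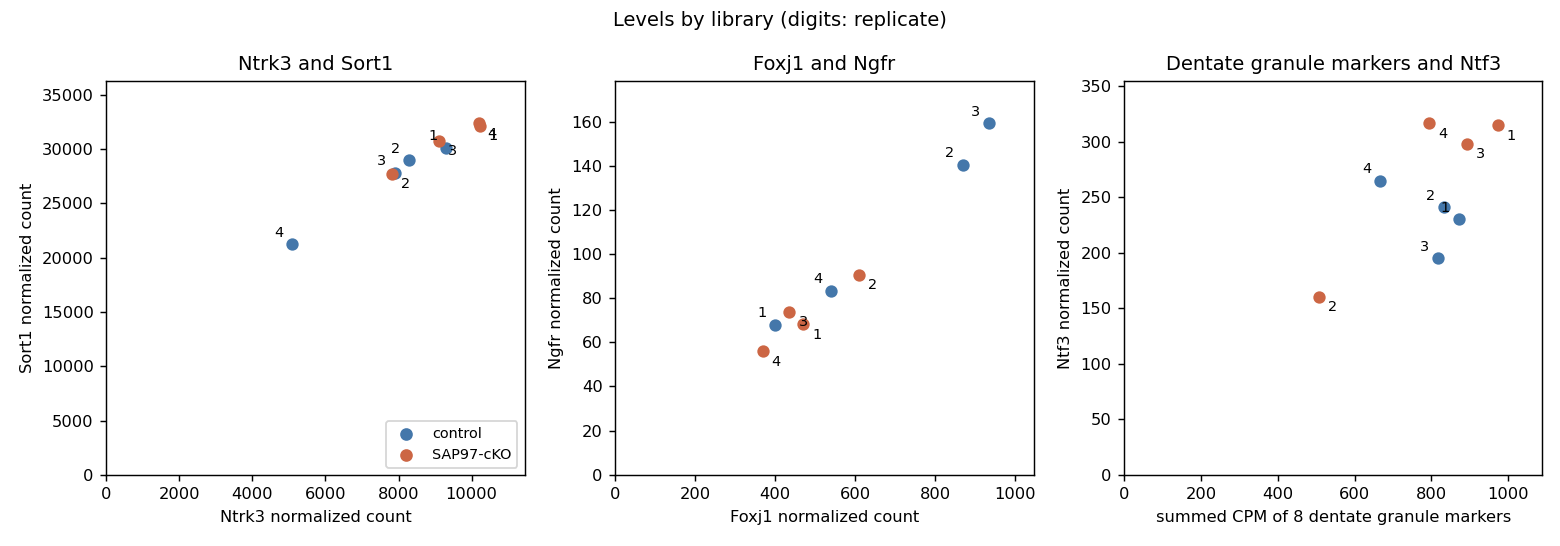
Each point is 1 library (blue control, orange SAP97-cKO, digits for the replicate): Sort1 against Ntrk3 and Ngfr against Foxj1 in normalized read counts, and Ntf3 in normalized read counts against summed CPM of 8 dentate granule cell markers. Control 4 stands alone at the lower left for Ntrk3 and Sort1, controls 2 and 3 at the upper right for Ngfr and Foxj1, and SAP97-cKO 2 at the lower left for Ntf3 and the granule cell markers.

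The closest genes of the remaining members were named by the same rule. For Bdnf they were Trpc4ap (r = 0.960) and Diras2 (r = 0.957), a small GTPase of brain. For Ntf3 they were Stx6 (r = 0.973), a syntaxin of endosomes, and Ank (r = 0.967), a transporter of pyrophosphate. For Ntrk2 they were Arrb1 (r = 0.954), a beta-arrestin, and Gosr2 (r = 0.950), a SNARE of the Golgi. Ntrk2 and Bdnf, receptor and ligand, did not follow each other (r = -0.051 over the 8 libraries), nor did Ntrk3 and Ntf3 closely (r = 0.30). The closest genes of Bdnf, Ntf3 and Ntrk2 had adjusted p-values of 0.479 or more between genotypes by edgeR.

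**Figure D4:**
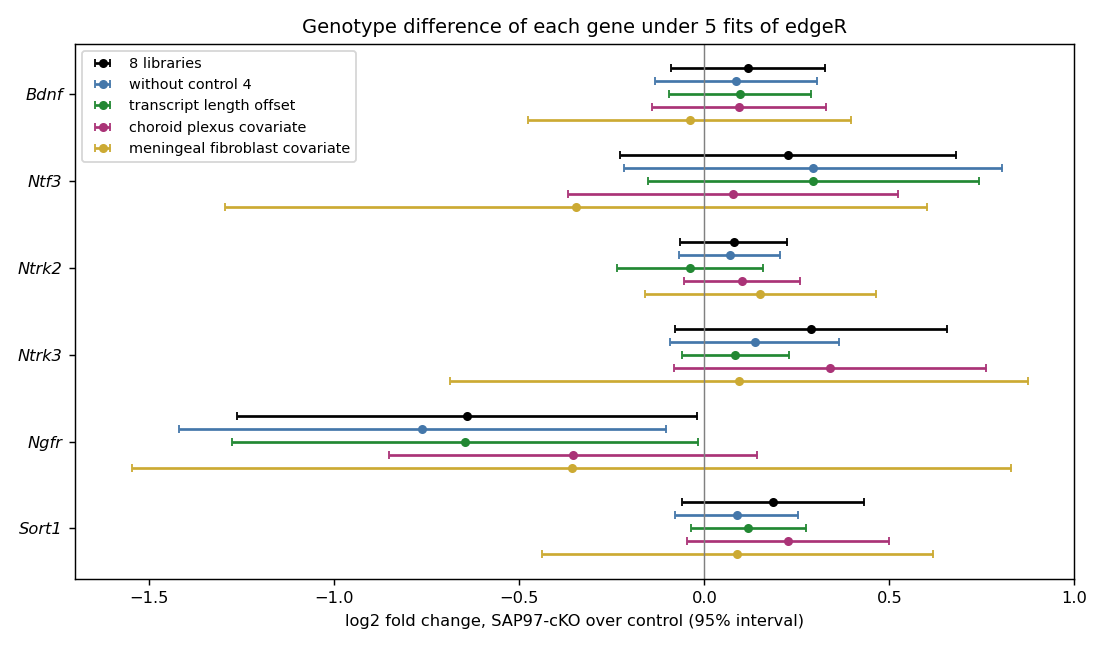
Log2 fold change of SAP97-cKO over control (x axis) with its 95% interval for each of the 6 genes in 5 edgeR fits: all 8 libraries, without control 4, with transcript length as an offset, and with choroid plexus or meningeal fibroblast level as a covariate. Ntrk3 moves from 0.29 to 0.14 without control 4 and Ngfr from -0.64 to -0.36 with either covariate, and every interval of the other 5 genes includes 0. The Ngfr intervals with either covariate include 0 as well. The meningeal fibroblast level does not overlap between genotypes, so its fit cannot separate it from genotype.

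Among 7 other ligands and receptors of the family, 5 were tested and 0 were called, with a median log2 fold change of 0.21. This median was 0.051 without control 4, and 0.097 with the transcript length offset, which was chosen after the data were seen. Ntf5, the ligand neurotrophin-4/5, was under the filter, with a control mean of 12.6 normalized read counts. The sortilin relatives Sorcs3 and Sorcs2 were at an unadjusted p under 0.05. Sorcs3 had 1686, 1515, 1307 and 1250 normalized read counts in controls 1 to 4 and 1757, 1831, 1691 and 2235 in SAP97-cKO 1 to 4. Its ranges were apart by a narrow margin (log2 fold change 0.38 ± 0.12 SE, adjusted p = 0.339 by edgeR). Sorcs2 had a log2 fold change of 0.31 ± 0.13 (SE, adjusted p = 0.400). Sorl1, a sorting receptor and with Sorcs2 the highest of this group per length at 34.5 and 6.88 CPM per kb, had 0.21 ± 0.18 (SE, adjusted p = 0.640). Control 4 was the lowest library for Sorl1, Sorcs3 and Sorcs2, at 8666, 1250 and 1810 normalized read counts.

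Of 10 genes that process the precursors or restrain those proteases, 9 were tested and 0 were called, with a median log2 fold change of -0.052. The proprotein convertase gene Pcsk5 was at 123% of control (log2 fold change 0.30 ± 0.10 SE, adjusted p = 0.359 by edgeR). Plat, which encodes tissue plasminogen activator, was at 84.9% (-0.24 ± 0.094 SE, adjusted p = 0.390). Both passed an unadjusted p under 0.05. The highest genes per length were Cpe, a sorting receptor for BDNF precursor in secretory granules, at 1182 CPM per kb and Serpini1, the neuronal inhibitor of Plat's product, at 37.2 CPM per kb. Their log2 fold changes were 0.11 and -0.14.

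Of 34 genes for Trk adaptors and their signalling cascades, 0 were called and the median log2 fold change was 0.049. At an unadjusted p under 0.05 there were 4 higher and 2 lower genes, or 6 of 34, against 11.7% of all tested genes. The higher ones were Rapgef1 (log2 fold change 0.21, adjusted p = 0.341), an exchange factor for Rap1, the adaptors Shc2 (0.26, adjusted p = 0.344) and Shc3 (0.31, adjusted p = 0.421) and the adaptor Sh2b1 (0.14, adjusted p = 0.414). The lower ones were Rap1a (-0.25, adjusted p = 0.347), the small GTPase, and the adaptor Shc1 (-0.29, adjusted p = 0.418). All adjusted p-values are from edgeR. Control 4 was the lowest library for Rapgef1, Shc2 and Sh2b1, at 4351, 1119 and 2304 normalized read counts. It was the highest library for Rap1a and Shc1, at 2882 and 345, while for Shc3 control 1 was the lowest, at 536. Without control 4 the median log2 fold change of the list was 0.045. The part of control 4 in the difference of each gene was not tested. The kinase gene Map2k1 was highest per length (121 CPM per kb), with a log2 fold change of 0.076.

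Of 12 genes for partners and effectors of p75NTR, 0 were called and the median log2 fold change was 0.038. Lingo1, which encodes a co-receptor of p75NTR in the Nogo receptor complex, had the smallest adjusted p of all the neurotrophin genes and lists described. It had 8731, 8831, 7628 and 7984 normalized read counts in controls 1 to 4. It had 9385, 12580, 10432 and 11814 in SAP97-cKO 1 to 4. Every SAP97-cKO library was above every control (log2 fold change 0.41 ± 0.098 SE, 95% interval 0.20 to 0.63, adjusted p = 0.293 by edgeR). It missed the threshold with all 8 libraries, and it was called without control 1 (adjusted p = 0.180) and without SAP97-cKO 1 (adjusted p = 0.168), fits that called 10.2% and 4.32% of all tested genes. DESeq2, which called 5.97% of the genes it tested, called it with all 8 libraries (adjusted p = 0.0169). It was the only gene of this list at an unadjusted p under 0.05 by edgeR. Maged1 (138 CPM per kb) and Bex3, listed as Ngfrap1 (127 CPM per kb), which encode p75NTR-binding proteins, were highest per length, with log2 fold changes of 0.12 and 0.029.

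Of 12 regulators of Bdnf transcription, 0 were called, with a median log2 fold change of 0.085. Mef2d, an activity-regulated transcription factor, had 8543, 8126, 7435 and 6776 normalized read counts in controls 1 to 4 and 8832, 8873, 9524 and 9348 in SAP97-cKO 1 to 4. Its groups were apart (log2 fold change 0.24 ± 0.080 SE, adjusted p = 0.347 by edgeR). Crtc1, a coactivator of CREB, had a log2 fold change of 0.24 ± 0.097 (SE, adjusted p = 0.396). Control 4 was the lowest library for Mef2d and Crtc1, at 6776 and 7377 normalized read counts. Without control 4 the median of the list was 0.045. Mef2d and Crtc1 were the only genes of the list at an unadjusted p under 0.05. Creb1 itself was at 94.9% of control. Mef2d (37.7 CPM per kb) and Arnt2 (35.9 CPM per kb), a partner of Npas4, were highest per length.

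Of 15 genes induced by neuronal activity or BDNF, 0 were called. The log2 fold changes of 14 were above zero, with a median of 0.25 and a range of -0.025 to 0.80, while the median of all tested genes was -0.012. SAP97-cKO 2 stood above the other libraries in this list: the mean log2 CPM of its genes was 5.43 there, 4.54, 4.93 and 4.94 in SAP97-cKO 1, 3 and 4, and 4.37 to 4.99 in controls. Without SAP97-cKO 2 the median log2 fold change was 0.11 and 12 of the 15 were above zero. With the oligodendrocyte level as a covariate the median was -0.044 and 6 of the 15 were above zero, so the direction turned. With the meningeal fibroblast level it was 0.49 and 13 were above zero. The value of 0.80 belongs to Egr2, which had 178 normalized read counts in SAP97-cKO 2 and 28.5, 42.6 and 23.9 in SAP97-cKO 1, 3 and 4, inside the control range of 11.96 to 64.1. Such genes are known to rise and fall together in 1 animal, so the 14 are not separate observations. Egr3, a transcription factor induced by activity, was the only one at an unadjusted p under 0.05 (log2 fold change 0.26 ± 0.10 SE, adjusted p = 0.392 by edgeR). It had 1254, 1039, 951 and 928 normalized read counts in controls 1 to 4 and 1152, 1373, 1201 and 1259 in SAP97-cKO 1 to 4. Control 1 was inside the SAP97-cKO range and the other controls were below it, with control 4 the lowest. Without control 4 the median of the list was 0.28. The most abundant per length were the granins Scg2 (100 CPM per kb, log2 fold change -0.025) and Vgf (56.4 CPM per kb, log2 fold change 0.21 ± 0.13 SE).

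**Figure D5:**
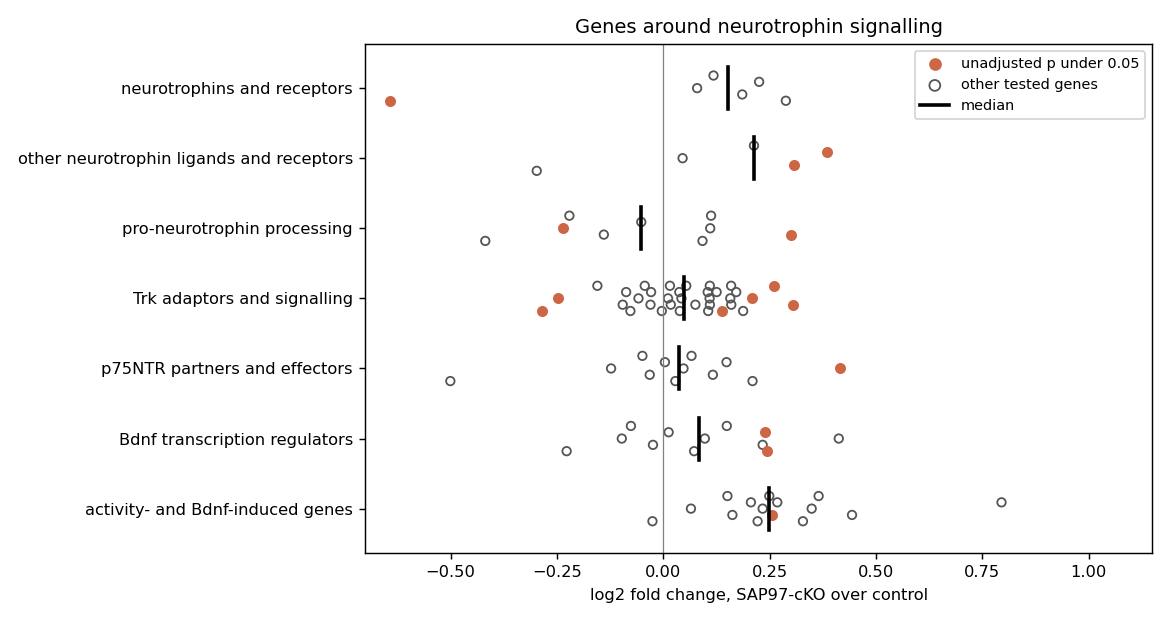
Log2 fold change of SAP97-cKO over control (x axis) for every tested gene of the 6 neurotrophin genes and of each of the 6 lists, with vertical offsets only to separate points, filled points at an unadjusted p under 0.05 and a black bar at each median. None of the points is past the FDR threshold, and the list medians lie between -0.052 and 0.25.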

How the data were processed

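Reads were aligned by the authors to mm10 (GRCm38.p5) with STAR 2.5.3a. With PORT they then brought all libraries to 1 depth by resampling and counted reads per Ensembl gene. The deposited counts are whole numbers. The methods state that mitochondrial reads were removed, but 15 mitochondrial genes hold counts. The table holds, per the file headers, the log2 fold change of the authors' own comparison and its p-value and q-value, none of which was used here.

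Genes were kept by filterByExpr (minimum count 10, minimum total 15), leaving 16251 and removing 9583, and scaled by TMM (factors 0.964 to 1.03). Genotypes were compared with edgeR 4.0.16 (R 4.3.3, quasi-likelihood test, Benjamini-Hochberg adjustment, FDR under 0.25, biological coefficient of variation 0.152). Intervals are 95%. Alternatives used limma 3.58.1 (voom), DESeq2 1.42.0, other scaling and filters, a stricter threshold, covariates, a replicate block and single libraries left out. Added after the data were seen were leaving out control 4 with SAP97-cKO 2, a dentate granule cell covariate and a transcript length offset. Plots were drawn with matplotlib 3.10.9.

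Members and lists were chosen with earlier results of these data known. Named are the 6 genes, Dlg1, in each list the genes at an unadjusted p under 0.05 (at most 6) and the 2 highest per length, and for each member the 2 genes with the highest Pearson r. Ntf5, Creb1 and Egr2 were named after their values were seen, and some genes of the lists are counted but not reported here by name. Gene positions and lengths are from GENCODE M21 (25696 of 25834 identifiers matched), and the promoter sequence is from RefSeq (GRCm38.p6, windows for 4 of the 6 genes).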

Additional observations from a re-analysis of the deposited data

Results flagged for a closer look

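In the SAP97-cKO group, 1 library stood far from the other 3 for Ntf3. SAP97-cKO 2 had 160 normalized read counts, and the others had 298 to 317. The gap to the nearest library was 0.88 of the whole range of the group, above Dixon's critical value of 0.829 for 4 samples. This was the only such value in 12 groups examined (6 genes in 2 genotypes), and chance gives about 1 in 20.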

How the results depend on the processing

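Of 330 comparisons of a result with an alternative (15 results under 22 alternatives), 281 were the same. For a fold change, this means that its direction and its side of the threshold were kept. For a count of called genes, it means that the count stayed equal or close. With all 8 libraries, 48 tested genes passed (2 higher, 46 lower). The number was 943 by DESeq2 (390 higher, 553 lower), 95 with no scaling (1 higher, 94 lower), 104 with no filter (15 higher, 89 lower), 256 with the replicate block, 16 with the choroid plexus covariate, 495 without control 4 and SAP97-cKO 2, and 106 with the transcript length offset. At an FDR under 0.05 edgeR called 0 (1907 at an unadjusted p under 0.05). Adding the meningeal fibroblast and oligodendrocyte covariates left 0 each (794 and 698 at an unadjusted p under 0.05). With single libraries left out it called 0 to 1675: 1675 without control 1, 711 without SAP97-cKO 1, and 0 without control 2, SAP97-cKO 3 or SAP97-cKO 4 (1403, 1259 and 1167 at an unadjusted p under 0.05). No scaling moved the median of all genes by -0.046 on the log2 scale, and the other scalings moved it less.

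Of the 6 neurotrophin genes, 0 to 1 were called with single libraries left out (Ngfr, without control 1) and 1 without both control 4 and SAP97-cKO 2 (Ntf3, 0.48). With the meningeal fibroblast covariate the log2 fold changes of Bdnf and Ntf3 turned to -0.040 and -0.35, and with the length offset that of Ntrk2 turned to -0.039. With single libraries left out, the log2 fold changes were 0.045 to 0.18 for Bdnf, 0.15 to 0.41 for Ntf3, 0.057 to 0.11 for Ntrk2, 0.14 to 0.40 for Ntrk3, -0.82 to -0.42 for Ngfr and 0.087 to 0.24 for Sort1. For Dlg1 they were -1.0 to -0.78, and its call was lost without control 2, SAP97-cKO 3 or SAP97-cKO 4, at an FDR under 0.05 (-0.86), and with the meningeal fibroblast (-0.38) and oligodendrocyte (-0.80) covariates. Because the meningeal fibroblast level did not overlap between genotypes, fits with that covariate cannot separate it from genotype. The causes were not tested.

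List counts of 0 rose under some settings. DESeq2 called 1 other ligand or receptor, 1 processing gene, 3 Trk signalling genes, 1 p75NTR partner and 1 regulator of Bdnf, where it called 5.97% of all genes. Lingo1 was the 1 p75NTR partner called with no filter, with the replicate block, with the length offset and without control 4 and SAP97-cKO 2, where 1 Trk signalling gene was also called. With single libraries left out, the counts were 0 to 2 other ligands and receptors, 0 to 1 processing genes, 0 to 3 Trk signalling genes, 0 to 1 p75NTR partners, 0 to 2 regulators of Bdnf and 0 to 1 activity-induced genes. The highest counts came without control 1 or SAP97-cKO 1, which called 10.2% and 4.32% of all tested genes.

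Nothing in the labels says that a replicate number marks a shared litter or batch. The deviations of same-numbered libraries correlated at -0.062, 0.201, 0.0898 and 0.259, and 3 of 4 pairs correlated best with their own number. The replicate block moved the number of tested genes called from 48 to 256 and called 0 of the 6 neurotrophin genes. With 4 mice per genotype, the intervals on the log2 scale were narrowest for Ntrk2 and widest for Ngfr. Written as folds, these were 0.956 to 1.17 for Ntrk2 and 0.416 to 0.985 for Ngfr.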
